A study of Rattus norvegicus with 12 samples.

Results

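The genes described here are the 145 rat genes whose symbol in the deposited count table is Zfp followed only by digits and whose mean count over the 12 libraries was at least 100, leaving out Zfp36. They were drawn from 160 such rows in a table of 17419 genes. The members were thus chosen by their mean count over these same libraries, so their levels are given as a description only. The members just inside the minimum were Zfp597, Zfp667 and Zfp52, with mean counts of 103.7, 104 and 131.4, and the rows just outside it were Zfp956, Zfp458 and Zfp7, with 95.3, 84.8 and 76.3. All 145 members also passed the filter on low counts used for testing, which kept 12535 genes. In RefSeq's gene table for rat (GRCr8), 144 members matched a current symbol. The remaining member, Zfp161, matched as an older name of Zbtb14.

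RNA came from primary cultures of wild-type newborn (P0) Sprague-Dawley rat heart ventricles, enriched for cardiomyocytes by separating off fibroblasts, 48 h after transfection of small interfering RNA (siRNA) with a lipid reagent. Cultures received 10 nM of siBtg1 with 10 nM of siBtg2 (called siBtg12), 10 nM of siBtg1 with 10 nM of a scrambled siRNA (siBtg1), 10 nM of siBtg2 with 10 nM of the scrambled siRNA (siBtg2), or 20 nM of the scrambled siRNA alone (siScr). Each of the 4 groups had 3 libraries. The labels do not say whether these came from separate cultures, so the p-values speak only to the spread among the libraries at hand, and that spread may be technical.

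Zfp is the rodent spelling for zinc finger proteins, most of them of the C2H2 kind, in which each finger folds around a zinc ion and a row of fingers reads a stretch of DNA. Many carry a KRAB domain that recruits the corepressor Trim28 and, through it, the histone methyltransferase Setdb1, which places a silencing mark on chromatin. Others act outside transcription, in RNA handling, ubiquitin transfer or the mitotic spindle. The proteins made from Btg1 and Btg2 restrain proliferation and bind the CCR4-NOT complex, which shortens the poly(A) tails of messenger RNAs and so starts their decay.

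Library totals were 24434925 to 46206581 counts, so 1 count was worth 0.0213 to 0.0422 CPM (counts scaled to a common library size, with the trimmed mean of M values, TMM). Btg1 had 50.9, 54.4 and 49.8 CPM in siBtg12, 69.9, 61.8 and 66.8 in siBtg1, 296, 305 and 297 in siBtg2 and 285, 281 and 284 in siScr. Btg2 had 69.6, 67.6 and 68.8 CPM in siBtg12, 169.8, 179 and 177 in siBtg1, 82.8, 85.3 and 87.4 in siBtg2 and 139.7, 132 and 144 in siScr. Both transcripts were lower in every library that received their siRNA than in any siScr library, and Btg2 was higher in the siBtg1 libraries than in siScr. Of 10 cardiomyocyte markers, 9 were in the table, none at 0, and they summed to 23123 to 24036 TPM (counts per transcript length, scaled to a common total) in siBtg12, 22330 to 25037 in siBtg1, 23573 to 25972 in siBtg2 and 22074 to 22808 in siScr. The 8 fibroblast markers summed to 5497 to 6223 TPM in siBtg12, 5559 to 6335 in siBtg1, 6666 to 6807 in siBtg2 and 6886 to 7057 in siScr. The 7 endothelial markers summed to 33.6 to 39.2 TPM in siBtg12, 40.2 to 47.1 in siBtg1, 42.9 to 43.2 in siBtg2 and 49.3 to 52.6 in siScr. Markers of other heart cells were thus detected, and no marker of these lists was at 0. The 7 macrophage markers summed to 27.8 to 28.3 TPM in siBtg12, 27 to 32.5 in siBtg1, 25.3 to 26.4 in siBtg2 and 37.6 to 44.6 in siScr. The 6 smooth muscle markers, also above 0, summed to 2769 to 3020 TPM in siBtg12, 3012 to 3747 in siBtg1, 2966 to 3327 in siBtg2 and 2569 to 2807 in siScr. The fibroblast, endothelial and macrophage sums were lower in every knockdown library than in any siScr library. Cardiomyocyte sums were higher in every siBtg12 and siBtg2 library than in any siScr library, and smooth muscle sums in every siBtg1 and siBtg2 library. The part of these cell types in the differences below was not tested. In such bulk samples, fewer or more cells of a type cannot be told apart from less or more RNA per cell.

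The members were mostly of low to middling abundance. Their mean TPM, which is per transcript length and so comparable between genes, ran from 1.63 to 148.6 with a median of 13.0, against a median of 23.9 over all genes tested. Of the 145, 29 averaged under 5 TPM, 71 from 5 to 20 and 45 at least 20. The 6 most abundant took 18.7% of the members' summed TPM. They were Zfp207 (148.6 TPM), a spindle assembly factor that partners Bub3; Zfp91 (90.7), a ubiquitin ligase of noncanonical NF-kB signalling; Zfp219 (68.9), a partner of Sox9; Zfp598 (68.4), the ubiquitin ligase that in human cells marks collided ribosomes; Zfp637 (66.3); and Zfp330 (61.7), a nucleolar protein. The summed TPM of all members was 2698 to 2801 in siBtg12, 2577 to 2680 in siBtg1, 2687 to 2799 in siBtg2 and 2642 to 2699 in siScr. These ranges touch or overlap, except that every siBtg2 and siBtg12 library was above every siBtg1 library. Together the members made up 0.258 to 0.280% of all TPM.

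**Figure D1:**
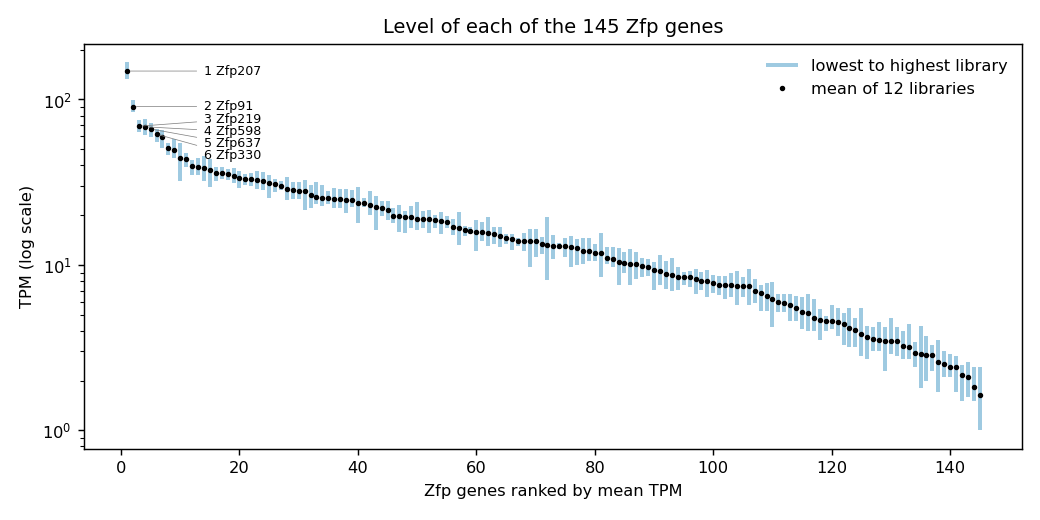
Level of each of the 145 Zfp genes in TPM on a log scale (vertical axis), ranked by mean TPM over the 12 libraries (horizontal axis). Points are means, bars run from the lowest to the highest library, and the 6 most abundant genes are named; the means span 1.63 to 148.6 TPM.

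Differences between groups were tested with edgeR's quasi-likelihood F test over all 12535 genes, with Benjamini-Hochberg adjustment within each comparison, and a gene was called at an adjusted p under 0.05. All adjusted p-values below come from this fit, and changes are log2 fold changes ± SE with 3 libraries a group. In siBtg12 against siScr 41 of the 145 members were called, where 38.9% of all genes tested were called. In siBtg1 against siScr 42 members were called (36.5% of all genes) and in siBtg2 against siScr 38 (30% of all genes). Those counts are 28.3%, 29.0% and 26.2% of the members. The 3 comparisons share the siScr libraries.

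By direction, siBtg12 had 29 members that rose (19.4% of all genes rose) and 12 that fell (19.5% of all genes fell). The siBtg1 cultures had 20 that rose (18.7% of all genes) and 22 that fell (17.8%), and the siBtg2 cultures 28 that rose (16.4%) and 10 that fell (13.6%). With library size as the only scaling the siBtg2 split was 22 rises and 14 falls. Most changes were small: the median log2 change of the 145 was 0.03 in siBtg12, -0.00 in siBtg1 and 0.03 in siBtg2, against -0.01, -0.00 and -0.00 over all genes tested. Called changes reached at least 1.5-fold in 2 members in siBtg12, both higher (2.79% of all genes were higher and 3.2% lower by that much). In siBtg1 they did so in 3 higher members and 1 lower (3.31% and 2.62% of all genes), and in siBtg2 in 1 higher and 1 lower (1.6% and 1.4%).

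Part of these counts was lost when 1 library was left out. Such a fit also has fewer libraries to test with, so a lost call need not rest on the library left out. Zfp9, at -0.26 in siBtg1 against siScr, stayed at -0.24 to -0.27 without any 1 of those libraries, yet lost its call each time. Without siScr replicate 1, siScr replicate 2 or siBtg12 replicate 1, 27 members were called in siBtg12 against siScr, with 6, 7 and 7 falls. Without siScr replicate 1 the siBtg1 count was 26 with 11 falls, and without siScr replicate 3 the falls were 14. In siBtg2 the falls were 6 without siScr replicate 2 and 5 without siBtg2 replicate 3. The calls that held whichever library was left out numbered 17 in siBtg12 (15 rises and 2 falls), 22 in siBtg1 (13 and 9) and 22 in siBtg2 (18 and 4). That is 41.5%, 52.4% and 57.9% of the members called, beside 68.0%, 66.8% and 58.9% of all genes called.

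**Figure D2:**
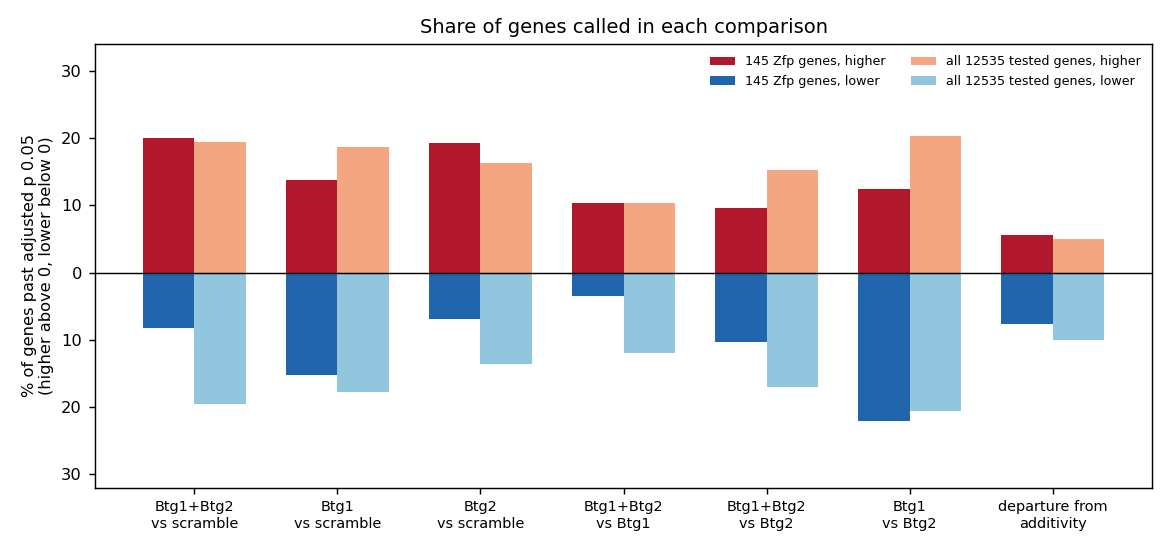
Percentage of genes called (adjusted p under 0.05) in 7 comparisons (higher above the zero line, lower below it), for the 145 Zfp genes (dark bars) and for all 12535 genes tested (light bars). In siBtg12 against siScr the Zfp bars stand at 20.0% higher and 8.28% lower, beside 19.4% and 19.5% of all genes.

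The 6 members described first rose in each of the 3 comparisons with siScr. Zfp365, known in neurons as a partner of the scaffold protein DISC1, had 20.1, 20.8 and 20.6 CPM in siBtg12, 26.7, 27 and 27.5 in siBtg1, 15.9, 14.2 and 14.4 in siBtg2 and 11.4, 11.4 and 11.6 in siScr. The 4 groups did not overlap: siBtg1 was highest, then siBtg12, siBtg2 and siScr. Zfp365 changed by 0.84 ± 0.07 (adjusted p = 1.4e-09) in siBtg12, by 1.24 ± 0.07 (adjusted p = 3.6e-12) in siBtg1 and by 0.37 ± 0.07 (adjusted p = 0.00029) in siBtg2, each against siScr. It was the largest rise among the members in siBtg12 and in siBtg1.

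Zfp281, a regulator of pluripotency genes in mouse embryonic stem cells, had 39.4, 38.2 and 33.4 CPM in siBtg12, 44.4, 43.5 and 44.8 in siBtg1, 36.3, 35.1 and 37.4 in siBtg2 and 27.7, 28.7 and 28.5 in siScr. All 9 knockdown libraries were above all siScr libraries, and the siBtg1 libraries were above the other knockdowns. Its changes were 0.39 ± 0.06 (adjusted p = 1.4e-05) in siBtg12, 0.64 ± 0.06 (adjusted p = 9.6e-09) in siBtg1 and 0.36 ± 0.06 (adjusted p = 7.1e-05) in siBtg2. Zfp608, which in mouse thymocytes limits expression of the recombinase genes, had 76.1, 74.2 and 76.1 CPM in siBtg12, 76.8, 81.2 and 79.6 in siBtg1, 68.2, 67.8 and 68.9 in siBtg2 and 53.1, 50.1 and 56.5 in siScr. It too was higher in every knockdown library than in siScr, by 0.50 ± 0.05 in siBtg12, 0.57 ± 0.05 in siBtg1 and 0.36 ± 0.05 in siBtg2 (adjusted p = 1.2e-08, 2.1e-09 and 4.7e-06).

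Zfp697, studied in mouse skeletal muscle regeneration, had 4.14, 4.55 and 4.56 CPM in siBtg12, 4.12, 4.88 and 5.19 in siBtg1, 6.13, 5.02 and 5.47 in siBtg2 and 2.97, 2.93 and 3.27 in siScr. Its siBtg2 and siBtg12 libraries did not overlap, and every knockdown library was above siScr. Zfp697 rose by 0.53 ± 0.14 (adjusted p = 0.0031) in siBtg12, 0.62 ± 0.13 (adjusted p = 0.00074) in siBtg1 and 0.87 ± 0.13 (adjusted p = 3.4e-05) in siBtg2, where it was the largest rise among the members. Zfp800, needed for endocrine pancreas development in the mouse, had 14.5, 14.9 and 10.8 CPM in siBtg12, 13.6, 13.5 and 13.4 in siBtg1, 13.4, 12.5 and 13.5 in siBtg2 and 9.74, 9.25 and 9.4 in siScr. One siBtg12 library sat lower than the other two but above every siScr library, and the changes were 0.50 ± 0.10 in siBtg12, 0.51 ± 0.10 in siBtg1 and 0.48 ± 0.10 in siBtg2 (adjusted p = 0.00033, 0.00026 and 0.00093). Zfp532, whose human counterpart is found fused to the NUT gene in a rare carcinoma, had 86.1, 80.3 and 85.3 CPM in siBtg12, 82.6, 83.6 and 74.9 in siBtg1, 75.2, 68.7 and 75.9 in siBtg2 and 63.7, 66 and 62.7 in siScr. The knockdown libraries were again all above siScr, by 0.39 ± 0.05 in siBtg12, 0.33 ± 0.05 in siBtg1 and 0.19 ± 0.05 in siBtg2 (adjusted p = 2.1e-06, 2.2e-05 and 0.006). For these 6 genes each of the 18 calls held whichever library was left out.

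A further 4 members passed in all 3 comparisons, which share the siScr libraries, but each lost at least 1 call when a library was left out. That makes 10 members that rose in all 3 (6.90%, beside 5.82% of all genes tested) and 0 that fell in all 3 (3.89% of all genes). Every call held whichever library was left out in 6 of the 10, and in 405 of 730 such genes over the whole table. Zfp189 changed by 0.34 ± 0.08 (adjusted p = 0.0016) in siBtg12, 0.26 ± 0.08 (adjusted p = 0.012) in siBtg1 and 0.32 ± 0.08 (adjusted p = 0.0041) in siBtg2, and its siBtg1 call was lost without siScr replicate 1 (adjusted p = 0.084). Zfp26 changed by 0.23 ± 0.07 (adjusted p = 0.018) in siBtg12, 0.32 ± 0.07 (adjusted p = 0.0016) in siBtg1 and 0.36 ± 0.07 (adjusted p = 0.0009) in siBtg2, and its siBtg12 call was lost without any 1 of 4 libraries (adjusted p up to 0.12). Zfp639 changed by 0.22 ± 0.06 (adjusted p = 0.0089) in siBtg12, 0.22 ± 0.06 (adjusted p = 0.0076) in siBtg1 and 0.31 ± 0.06 (adjusted p = 0.00071) in siBtg2. Without siScr replicate 2 its siBtg12 and siBtg1 calls were lost (adjusted p = 0.078 and 0.069), and the siBtg1 call also without siBtg1 replicate 3 (adjusted p = 0.052). Zfp507 changed by 0.20 ± 0.06 (adjusted p = 0.012) in siBtg12, 0.19 ± 0.06 (adjusted p = 0.019) in siBtg1 and 0.39 ± 0.06 (adjusted p = 5.2e-05) in siBtg2, and the siBtg12 and siBtg1 calls were lost without 2 and 3 libraries (adjusted p up to 0.077 and 0.097). Zfp189, Zfp26 and Zfp639 were named after their values were seen.

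**Figure D3:**
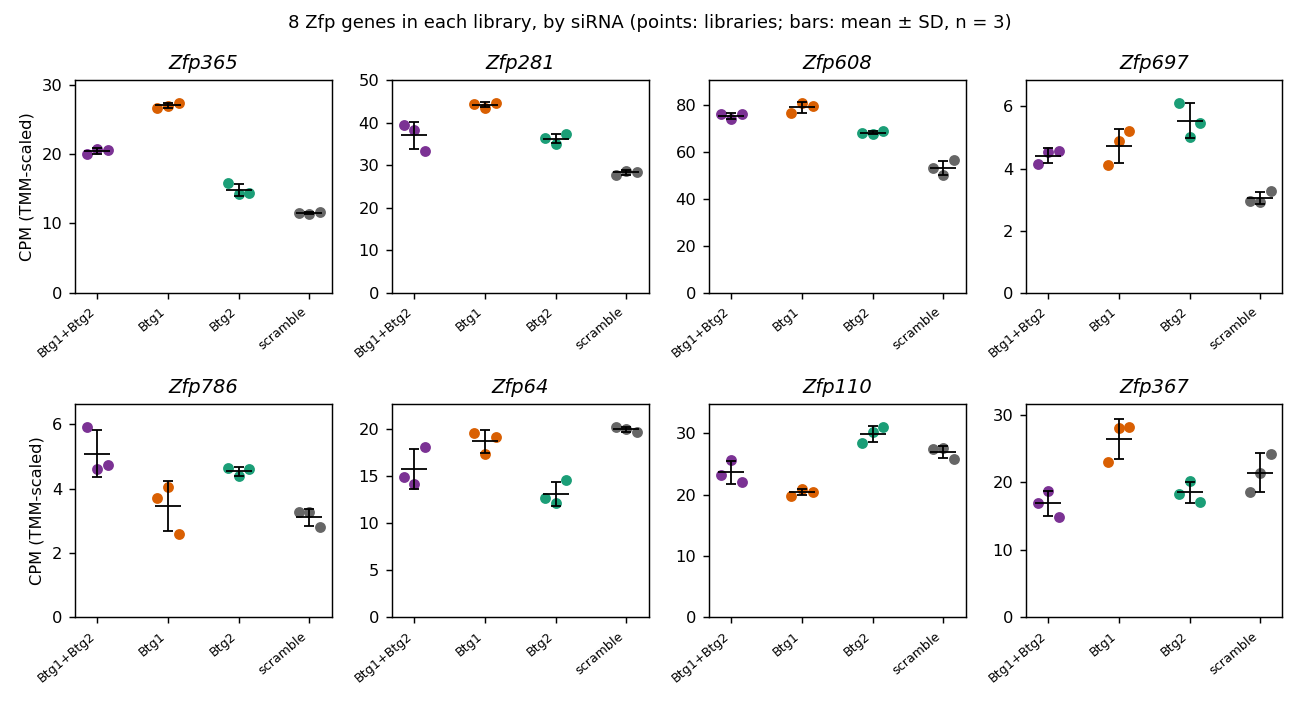
CPM of 8 Zfp genes in each library (points), with the mean ± SD of the 3 libraries of each group, for siBtg12, siBtg1, siBtg2 and siScr from left to right; every vertical axis starts at 0. Zfp365, Zfp281, Zfp608 and Zfp697 are above siScr in all 9 knockdown libraries, and the other genes shown are not above it in every one.

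The 250 bases before the start of 4 of these genes, and of Zfp64, which fell, are shown because the 4 rose in each comparison with siScr and Zfp64 fell in siBtg12 and siBtg2. The sequences are RefSeq's for GRCr8 and lie at chr20:20664872-20665121 (plus strand, Zfp365), chr2:188659044-188659293 (plus, Zfp697), chr13:50647572-50647821 (plus, Zfp281), chr4:57814210-57814459 (minus, Zfp800) and chr3:178114558-178114807 (minus, Zfp64). They are written 5′ to 3′ on the gene's strand, and capitals mark matches to the motifs named below on either strand.
Zfp365: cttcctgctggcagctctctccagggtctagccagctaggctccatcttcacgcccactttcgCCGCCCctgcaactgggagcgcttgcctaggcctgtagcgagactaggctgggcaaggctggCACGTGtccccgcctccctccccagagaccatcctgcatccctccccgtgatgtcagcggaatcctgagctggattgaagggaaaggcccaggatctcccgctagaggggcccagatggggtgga
Zfp697: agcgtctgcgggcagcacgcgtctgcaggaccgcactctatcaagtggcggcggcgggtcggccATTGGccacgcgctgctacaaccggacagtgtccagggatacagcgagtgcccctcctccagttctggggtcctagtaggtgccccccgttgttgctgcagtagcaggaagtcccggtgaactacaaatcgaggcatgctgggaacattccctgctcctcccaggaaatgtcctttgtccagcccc
Zfp281: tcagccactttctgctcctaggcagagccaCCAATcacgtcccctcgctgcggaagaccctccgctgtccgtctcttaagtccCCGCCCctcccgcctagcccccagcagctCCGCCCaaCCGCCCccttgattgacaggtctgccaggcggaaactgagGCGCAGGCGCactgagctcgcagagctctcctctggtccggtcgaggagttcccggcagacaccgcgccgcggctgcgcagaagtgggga
Zfp800: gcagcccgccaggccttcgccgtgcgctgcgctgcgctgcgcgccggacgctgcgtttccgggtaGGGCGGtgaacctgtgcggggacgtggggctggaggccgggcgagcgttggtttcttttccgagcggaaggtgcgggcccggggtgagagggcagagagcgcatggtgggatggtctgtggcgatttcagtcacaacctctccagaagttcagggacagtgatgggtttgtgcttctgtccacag
Zfp64: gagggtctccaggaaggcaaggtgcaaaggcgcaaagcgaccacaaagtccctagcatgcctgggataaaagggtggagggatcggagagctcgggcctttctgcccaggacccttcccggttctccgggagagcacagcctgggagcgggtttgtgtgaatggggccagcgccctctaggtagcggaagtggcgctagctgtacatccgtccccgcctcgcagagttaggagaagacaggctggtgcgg
Zfp365 holds 1 GC box and 1 E-box, Zfp697 1 CCAAT box, Zfp281 1 CCAAT box, 3 GC boxes and 1 NRF1 motif, and Zfp800 1 GC box. Zfp64 holds none of the motifs. In these 5 windows no match overlapped another. Motifs did not go with direction in every member. The windows of Zfp639 and Zfp786, which rose in siBtg12 and siBtg2, also hold none. That of Zfp689, which fell in both, holds 3 CCAAT boxes.

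Such windows were available for 116 of the 145 members and for 9410 of the genes tested. The members' windows had a median GC content of 57.4% and a median of 14 CpG dinucleotides, against 60% and 16 over all genes tested. The GC box GGGCGG was in 47.4% of the members' windows and in 58.1% of all, and the CCAAT box CCAAT in 37.9% and 34.9%. The ETS motif CCGGAAG was in 16.4% and 14.7%, the NRF1 motif in 9.48% and 8.80%, the TATA box TATAAA in 8.62% and 6.85%, and the E-box CACGTG in 6.03% and 8.03%. The AP-1 motif TGANTCA was in 4.31% and 4.53%, the CRE TGACGTCA in 2.59% and 2.82%, an E2F motif in 2.59% and 1.17%, and the core of the ZNF143 site in 1.72% and 0.638%. These are matches of letters on both strands, not sites of binding.

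Other members passed in some of the comparisons with siScr and not in others. Zfp786 had 5.92, 4.6 and 4.74 CPM in siBtg12, 3.72, 4.06 and 2.58 in siBtg1, 4.63, 4.38 and 4.6 in siBtg2 and 3.27, 3.26 and 2.8 in siScr. It was higher in siBtg12 and in siBtg2 than in any siScr library, while siBtg1 overlapped siScr. The changes were 0.71 ± 0.15 (adjusted p = 0.0008) in siBtg12, 0.16 ± 0.16 (adjusted p = 0.47) in siBtg1 and 0.55 ± 0.16 (adjusted p = 0.011) in siBtg2, and the siBtg2 call was lost without siScr replicate 3 (adjusted p = 0.054). The difference between siBtg1 and siBtg2 was -0.39 ± 0.15 (adjusted p = 0.048), lost without any 1 of 5 of their 6 libraries (adjusted p up to 0.26). Zfp64, a regulator of the MLL gene in human leukaemia, had 14.9, 14.1 and 18.1 CPM in siBtg12, 19.6, 17.3 and 19.1 in siBtg1, 12.6, 12.1 and 14.5 in siBtg2 and 20.2, 20 and 19.7 in siScr. It was lower in siBtg12 and siBtg2 than in siScr with no overlap, and changed by -0.34 ± 0.09 (adjusted p = 0.0033) in siBtg12, -0.09 ± 0.09 (adjusted p = 0.43) in siBtg1 and -0.60 ± 0.09 (adjusted p = 2.6e-05) in siBtg2. In siBtg1 against siBtg2 Zfp64 was at 0.51 ± 0.09 (adjusted p = 9.4e-05), which held whichever library was left out. Zfp689 had 8.54, 7.37 and 9 CPM in siBtg12, 9.63, 9.48 and 9.52 in siBtg1, 8.48, 8.35 and 6.87 in siBtg2 and 10.9, 10.3 and 11.2 in siScr, and every knockdown library was below siScr. It changed by -0.38 ± 0.10 (adjusted p = 0.0041) in siBtg12, -0.18 ± 0.10 (adjusted p = 0.17) in siBtg1 and -0.46 ± 0.10 (adjusted p = 0.0014) in siBtg2. Between siBtg1 and siBtg2 Zfp689 differed by 0.28 ± 0.10 (adjusted p = 0.031), lost without any 1 of 4 libraries (adjusted p up to 0.22).

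Among the falls with the Btg1 siRNA, Zfp251 had 41.6, 42.3 and 39.8 CPM in siBtg12, 35.5, 35.7 and 31.7 in siBtg1, 47.2, 47.4 and 48.4 in siBtg2 and 52.7, 45.2 and 45.7 in siScr. All siBtg1 libraries were below all others. It changed by -0.48 ± 0.06 (adjusted p = 1.3e-06) in siBtg1, by -0.00 ± 0.06 (adjusted p = 0.97) in siBtg2 and by -0.21 ± 0.06 (adjusted p = 0.0066) in siBtg12, and the siBtg12 call was lost without siScr replicate 1 (adjusted p = 0.077). Zfp110, which encodes a partner of the neurotrophin receptor p75, had 23.2, 25.6 and 22 CPM in siBtg12, 19.8, 20.8 and 20.4 in siBtg1, 28.4, 30.3 and 31 in siBtg2 and 27.4, 27.6 and 25.9 in siScr. It too was lowest in siBtg1, at -0.41 ± 0.07 (adjusted p = 3e-05) against siScr. In siBtg12 its change was -0.19 ± 0.06 (adjusted p = 0.021), a call lost without siScr replicate 1 or 2 or siBtg12 replicate 1 or 3 (adjusted p = 0.064, 0.077, 0.056 and 0.099). Zfp46 had 46.8, 43.7 and 43.5 CPM in siBtg12, 39.8, 38.2 and 36.8 in siBtg1, 45.9, 47.4 and 44.8 in siBtg2 and 52.4, 50.1 and 47.7 in siScr and changed by -0.39 ± 0.05 (adjusted p = 3.8e-06) in siBtg1, where it was below every other group. Zfp213 fell by 0.39 ± 0.08 on the log2 scale in siBtg1 (adjusted p = 0.00041). Zfp51 changed by -0.40 ± 0.12 (adjusted p = 0.013) and Zfp667, a gene just above the minimum count, by -0.66 ± 0.19 (adjusted p = 0.008). The Zfp51 call was lost without siScr replicate 3 (adjusted p = 0.058) and the Zfp667 call without siScr replicate 1 (adjusted p = 0.071).

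Further members were among the largest changes of 1 comparison with siScr. Zfp217, part of a corepressor complex and amplified in human breast cancer, changed by 0.37 ± 0.06 (adjusted p = 2.9e-05) in siBtg1. Zfp691 and Zfp414 fell in siBtg2, by 0.38 ± 0.07 and 0.26 ± 0.06 on the log2 scale (adjusted p = 0.00029 and 0.0024). Less firm were 2 further falls in siBtg2. Zfp775 changed by -0.23 ± 0.08 (adjusted p = 0.025) and lost its call without siScr replicate 2 or 3 or siBtg2 replicate 1 or 3 (adjusted p = 0.13, 0.059, 0.11 and 0.081). Zfp787 changed by -0.21 ± 0.06 (adjusted p = 0.014) and lost its call without siScr replicate 2 or siBtg2 replicate 3 (adjusted p = 0.091 and 0.096). In siBtg12 the rise of Zfp2, 0.48 ± 0.17 (adjusted p = 0.028), was lost without siScr replicate 1 or 3 or siBtg12 replicate 1 or 2 (adjusted p = 0.12, 0.1, 0.18 and 0.068). The fall of Zfp316 in siBtg12, -0.27 ± 0.09 (adjusted p = 0.025), was lost without siScr replicate 1 or 2 or siBtg12 replicate 1 or 2 (adjusted p = 0.057, 0.16, 0.085 and 0.092). That of Zfp263, -0.22 ± 0.07 (adjusted p = 0.021), was lost without siScr replicate 2 (adjusted p = 0.11).

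Zfp367 moved in opposite directions. It had 17, 18.7 and 14.9 CPM in siBtg12, 23, 28.1 and 28.3 in siBtg1, 18.3, 20.2 and 17.2 in siBtg2 and 18.5, 21.4 and 24.3 in siScr. The siBtg12 libraries lay below or within the siScr range and the siBtg1 libraries at its upper end or above. It changed by -0.35 ± 0.10 (adjusted p = 0.013) in siBtg12, by 0.30 ± 0.10 (adjusted p = 0.027) in siBtg1 and by -0.22 ± 0.10 (adjusted p = 0.13) in siBtg2. The siBtg12 call was lost without siScr replicate 3 or siBtg12 replicate 3 (adjusted p = 0.081 and 0.064), and the siBtg1 call without siScr replicate 1 or 2 or siBtg1 replicate 2 or 3 (adjusted p = 0.14, 0.07, 0.1 and 0.11). Between siBtg12 and siBtg1 the libraries did not overlap, and the difference of -0.65 ± 0.10 (adjusted p = 0.00015) held whichever library was left out.

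The abundant members and those with a characterised role come next. Zfp207 had 139, 133 and 127 CPM in siBtg12, 115, 118 and 119.6 in siBtg1, 141, 144 and 144 in siBtg2 and 120.1, 124 and 127 in siScr. Its siBtg2 libraries were above all siBtg1 and siScr libraries, and it changed by 0.21 ± 0.04 (adjusted p = 0.00038) in siBtg2. In siBtg12 its change was 0.11 ± 0.04 (adjusted p = 0.037), lost without siScr replicate 1 or 2 or siBtg12 replicate 1 or 2 (adjusted p = 0.16, 0.078, 0.19 and 0.065). Zfp91 changed by 0.16 ± 0.04 (adjusted p = 0.0028) in siBtg2. Zfp598 had 124, 117 and 125 CPM in siBtg12, 99.7, 110.2 and 113 in siBtg1, 121, 117 and 116 in siBtg2 and 102, 109 and 108 in siScr, with siBtg12 above all siBtg1 and siScr libraries, and changed by 0.19 ± 0.05 (adjusted p = 0.0024) in siBtg12. Zfp219 and Zfp330 changed by -0.23 ± 0.05 (adjusted p = 0.0011) and -0.17 ± 0.05 (adjusted p = 0.006) in siBtg1. Zfp637 changed by -0.15 ± 0.05 (adjusted p = 0.038) in siBtg12, a call lost without siScr replicate 1 or 2 or siBtg12 replicate 1 (adjusted p = 0.079, 0.13 and 0.18).

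Zfp260, described in rat heart as a transcriptional partner of Gata4, had 108, 107 and 94.5 CPM in siBtg12, 98.8, 93.6 and 93.3 in siBtg1, 113, 119 and 124 in siBtg2 and 113, 103 and 112 in siScr. Every siBtg1 library was below every siScr library, with a change of -0.20 ± 0.05 (adjusted p = 0.005), and siBtg12 overlapped siScr (-0.09 ± 0.05 (adjusted p = 0.21)). Zfp57 and Zfp445 maintain DNA methylation at imprinted genes. Zfp57 changed by 0.27 ± 0.08 (adjusted p = 0.0075) in siBtg12, 0.18 ± 0.08 (adjusted p = 0.08) in siBtg1 and 0.32 ± 0.08 (adjusted p = 0.0033) in siBtg2, and Zfp445 by 0.08 ± 0.06 (adjusted p = 0.35) in siBtg12, 0.05 ± 0.06 (adjusted p = 0.56) in siBtg1 and 0.32 ± 0.06 (adjusted p = 0.00037) in siBtg2. Zfp131 changed by 0.21 ± 0.06 (adjusted p = 0.0062) in siBtg12 and 0.22 ± 0.06 (adjusted p = 0.0041) in siBtg1. Zfp521, a partner of the Ebf factors, changed by -0.21 ± 0.07 (adjusted p = 0.019) in siBtg1, lost without siScr replicate 1 or siBtg1 replicate 1 or 3 (adjusted p = 0.11, 0.057 and 0.073). Of 34 members listed for a characterised role, 7 rose and 4 fell in siBtg12, 5 rose and 8 fell in siBtg1, and 7 rose and 1 fell in siBtg2 (over all genes, 19.4% rose and 19.5% fell in siBtg12, 18.7% and 17.8% in siBtg1, and 16.4% and 13.6% in siBtg2). Among those that did not pass in these comparisons were Zfp143, Zfp148 and Zfp384, with changes of -0.05 ± 0.08, 0.04 ± 0.05 and -0.02 ± 0.04 in siBtg12.

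Adding 1 siRNA to the other gives comparisons that do not use the siScr libraries. The level of the other target also differed in them. Btg1 changed by -0.36 ± 0.05 (adjusted p = 5.6e-06) in siBtg12 against siBtg1, and Btg2 by -0.31 ± 0.04 (adjusted p = 6.2e-06) in siBtg12 against siBtg2. In siBtg12 against siBtg1, where siBtg2 takes the place of the scrambled siRNA, 20 members were called (22.3% of all genes), 15 higher (10.3%) and 5 lower (11.9%). The count was 13 with 9 rises without siBtg12 replicate 2 and 10 with 6 rises without siBtg1 replicate 3, and the rises were 8 without siBtg12 replicate 1. In siBtg12 against siBtg2, where siBtg1 takes the place of the scrambled siRNA, 29 were called (32.2% of all genes), 14 higher (15.2%) and 15 lower (17%). With library size as the only scaling the split was 20 higher and 9 lower. The falls were 8 without siBtg12 replicate 3 and the rises 9 without siBtg2 replicate 1 or 2.

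Zfp365 stood between the single knockdowns, at -0.40 ± 0.06 (adjusted p = 6.7e-05) in siBtg12 against siBtg1 and 0.46 ± 0.07 (adjusted p = 1e-05) in siBtg12 against siBtg2. Zfp281 was lower in siBtg12 than in siBtg1 by 0.26 ± 0.06 on the log2 scale (adjusted p = 0.0018), and Zfp74 higher by 0.31 ± 0.08 (adjusted p = 0.0044). Zfp786 and Zfp397 were higher in siBtg12 than in siBtg1, by 0.55 ± 0.15 (adjusted p = 0.011) and 0.31 ± 0.11 (adjusted p = 0.047). The Zfp786 call was lost without siBtg12 replicate 1 or siBtg1 replicate 3 (adjusted p = 0.072 and 0.078). The Zfp397 call was lost without siBtg12 replicate 1 or 2 or siBtg1 replicate 2 or 3 (adjusted p = 0.22, 0.088, 0.085 and 0.21). Against siBtg2, Zfp467 was higher in siBtg12 by 0.35 ± 0.06 (adjusted p = 0.00016), and Zfp9 and Zfp110 were lower, at -0.36 ± 0.09 (adjusted p = 0.0037) and -0.34 ± 0.06 (adjusted p = 0.00023). Zfp202 was at -0.36 ± 0.11 (adjusted p = 0.011), lost without siBtg2 replicate 2 (adjusted p = 0.081). Zfp14 was at 0.34 ± 0.12 (adjusted p = 0.032), a call lost without any 1 of the siBtg2 libraries or without siBtg12 replicate 1 or 2 (adjusted p = 0.11, 0.061, 0.053, 0.072 and 0.11). Of the role list, Zfp830, a splicing factor, was at 0.22 ± 0.06 (adjusted p = 0.0046). Zfp161 was at -0.23 ± 0.07 (adjusted p = 0.02), lost without siBtg12 replicate 3 or siBtg2 replicate 1 (adjusted p = 0.059 and 0.081). Zfp638, a silencing factor, was at -0.17 ± 0.06 (adjusted p = 0.039), lost without siBtg12 replicate 1 or 3 or siBtg2 replicate 2 or 3 (adjusted p = 0.056, 0.19, 0.17 and 0.13).

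The same siRNA could be followed in 2 comparisons without a shared library, though its target did not fall equally in both. Btg1 changed by -2.10 ± 0.04 in siBtg1 against siScr and by -2.53 ± 0.05 in siBtg12 against siBtg2. Btg2 changed by -0.70 ± 0.04 in siBtg2 against siScr and by -1.35 ± 0.04 in siBtg12 against siBtg1. For the Btg1 siRNA, 42 members were called in siBtg1 against siScr and 29 in siBtg12 against siBtg2. Of these, 13 were called in both in the same direction, 8 higher and 5 lower, which is 31.0% of the first list and 44.8% of the second. Over all genes the shares were 45.9% and 51.9%. The 13 were Zfp365, Zfp608, Zfp532, Zfp516, Zfp467, Zfp746, Zfp282 and Zfp14 (higher) and Zfp110, Zfp251, Zfp260, Zfp9 and Zfp202 (lower). Both calls held whichever library was left out in 6 of the 13 (46.2%, against 63.8% of such genes over the whole table), namely Zfp365, Zfp532, Zfp467, Zfp110, Zfp251 and Zfp260. The other 7 lost at least 1 of their calls, Zfp9 in siBtg1 against siScr without any 1 of the 6 libraries. Zfp697 and Zfp507 were higher in siBtg1 than in siScr but lower in siBtg12 than in siBtg2, and Zfp691 was the reverse. Each of these 3 lost its call in siBtg12 against siBtg2 without any 1 of at least 4 libraries (adjusted p up to 0.21, 0.08 and 0.12), Zfp697 also with the replicate number as a block (adjusted p = 0.057), and Zfp507 and Zfp691 lost theirs in siBtg1 as well (up to 0.097 and 0.11). Among all genes tested, 265 were called in opposite directions, beside 2097 in the same direction. Of those 265 genes, 118 kept both calls whichever library was left out. Pearson's r of the log2 changes across the 145 genes was 0.30, and across all genes tested 0.45. Genes of the same libraries are not independent, so this is a description.

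For the Btg2 siRNA, 38 members were called in siBtg2 against siScr and 20 in siBtg12 against siBtg1. Of these, 9 were called in both in the same direction, 7 higher and 2 lower, which is 23.7% of the first list and 45% of the second, beside 29.3% and 39.4% over all genes. They were Zfp786, Zfp397, Zfp74, Zfp426, Zfp266, Zfp207 and Zfp598 (higher) and Zfp64 and Zfp672 (lower). Only Zfp207 kept both calls whichever library was left out (1 of 9, against 550 of 1101 such genes over the whole table), and the other 8 lost at least 1. Zfp365 and Zfp281 were higher in siBtg2 than in siScr but lower in siBtg12 than in siBtg1, and these calls held whichever library was left out. Such opposite calls were not particular to the members. Among all genes tested, 286 were called in opposite directions, beside 1101 in the same direction. Of those 286 genes, 129 kept both calls whichever library was left out. The r across the 145 genes was 0.17, and 0.21 across all genes.

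**Figure D4:**
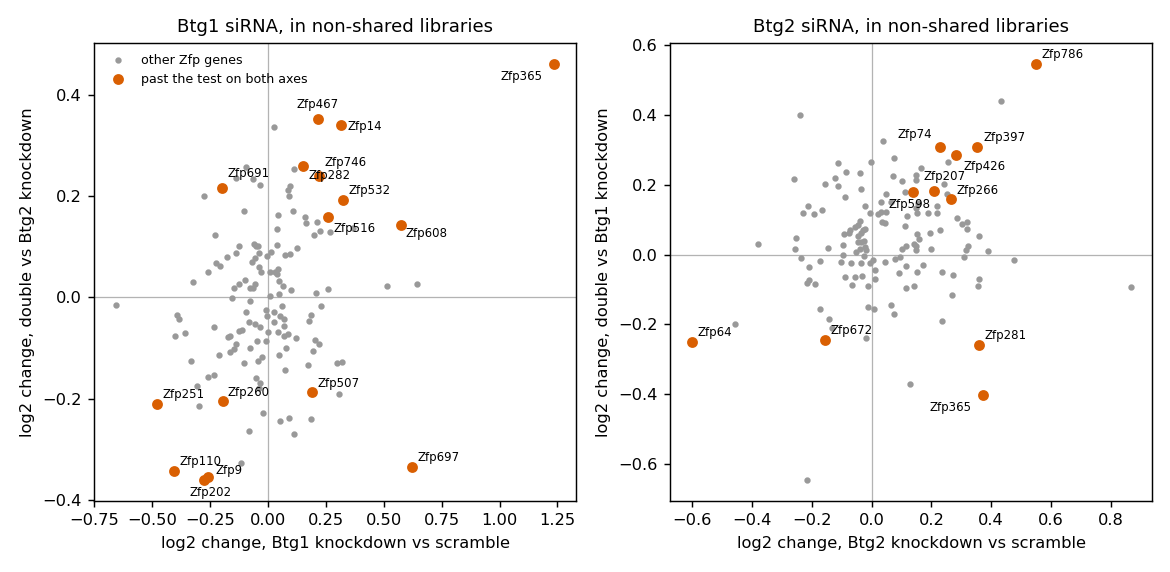
Log2 changes of the 145 Zfp genes for the same siRNA in 2 sets of libraries with none in common: the Btg1 siRNA (left; horizontal axis siBtg1 against siScr, vertical axis siBtg12 against siBtg2) and the Btg2 siRNA (right; siBtg2 against siScr, and siBtg12 against siBtg1). Named orange points passed the test on both axes, 16 on the left and 11 on the right, and 3 and 2 of them lie in quadrants of opposite sign.

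The single knockdowns were also set against each other. In siBtg1 against siBtg2, 50 members were called (40.8% of all genes), 18 higher and 32 lower, where 20.3% of all genes were higher and 20.6% lower. The median of the 145 was -0.05, with 89 below 0 and 56 above, against 0.00 over all genes. With library size as the only scaling the split was 22 higher and 23 lower. Without siBtg2 replicate 2 the count was 33 with 20 falls, and without siBtg2 replicate 3 the falls were 19. Zfp365, Zfp367 and Zfp64 were higher in siBtg1 by 0.86 ± 0.07 (adjusted p = 4.7e-10), 0.52 ± 0.10 (adjusted p = 0.00051) and 0.51 ± 0.09 (adjusted p = 9.4e-05). Zfp110, Zfp9 and Zfp251 were lower in siBtg1, at -0.56 ± 0.07 (adjusted p = 3.6e-07), -0.48 ± 0.09 (adjusted p = 0.00018) and -0.48 ± 0.06 (adjusted p = 1.3e-06). None of these 6 calls was lost when 1 library was left out.

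Where 2 effects add on the log2 scale, the siBtg12 change equals the sum of the single changes. The departure from that sum (siBtg12 minus siBtg1 minus siBtg2 plus siScr) was called in 19 members (15.1% of all genes), 8 above 0 (4.99% of all genes) and 11 below 0 (10.1%). The median over the 145 was 0.01, as over all genes tested. The departures below 0 included genes that had risen with each siRNA: Zfp697 at -0.96 ± 0.18 (adjusted p = 0.0009), Zfp365 at -0.77 ± 0.09 (adjusted p = 4.6e-06), Zfp281 at -0.62 ± 0.08 (adjusted p = 1.3e-05) and Zfp608 at -0.43 ± 0.07 (adjusted p = 7.5e-05). In these 4 the siBtg12 level was below the sum of the single rises and its mean below that of the higher single knockdown. Above 0 stood Zfp691 at 0.41 ± 0.10 (adjusted p = 0.0069), Zfp46 at 0.34 ± 0.07 (adjusted p = 0.0026) and Zfp219 at 0.29 ± 0.07 (adjusted p = 0.0065), genes whose mean was lower in each single knockdown than in siScr. The siBtg1, siBtg2 and siScr libraries enter both the single changes and the departure, with opposite signs. A departure opposite in sign to the single changes is thus partly built into the arithmetic, and is given as a description only. Zfp133 (0.37 ± 0.12 (adjusted p = 0.03)) lost its call without siScr replicate 2, siBtg12 replicate 2, siBtg1 replicate 1 or 3, or siBtg2 replicate 1 or 2 (adjusted p = 0.095, 0.075, 0.054, 0.073, 0.085 and 0.059). Zfp213 (0.36 ± 0.11 (adjusted p = 0.034)) lost it without siScr replicate 1 or 2, siBtg12 replicate 2 or 3, siBtg1 replicate 1 or 3, or siBtg2 replicate 2 (adjusted p = 0.081, 0.088, 0.057, 0.06, 0.052, 0.08 and 0.095). The calls above 0 numbered 3 without siBtg1 replicate 3 or siBtg2 replicate 2, 4 without siScr replicate 1 or siBtg2 replicate 1, and 5 without siScr replicate 2, siBtg12 replicate 1 or siBtg1 replicate 1.

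**Figure D5:**
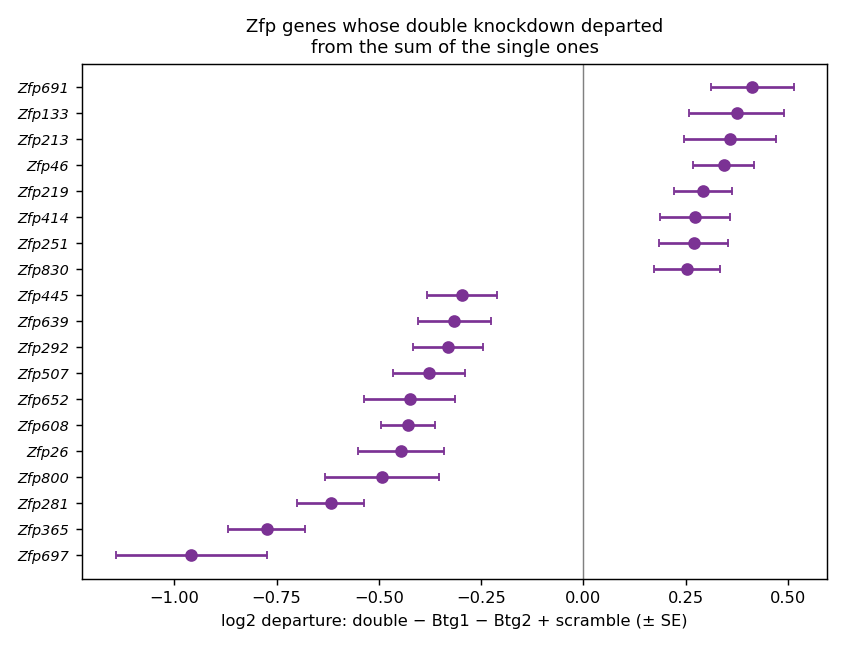
Departure of the double knockdown from the sum of the single ones (siBtg12 minus siBtg1 minus siBtg2 plus siScr, log2) for the 19 Zfp genes called, one row each; points are estimates and bars ± SE with 3 libraries a group. The estimates run from 0.41 (Zfp691) to -0.96 (Zfp697), 8 above 0 and 11 below.

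Zfp genes often lie beside each other in the genome, and closely related copies can share reads. How the authors' counting treated reads that fit several genes is not given in the sources used here, so a small change in 1 of a group of near copies is uncertain. In RefSeq's gene order on GRCr8, 13 runs of adjacent members held 31 of the 145, and 114 had no member beside them. In siBtg2 against siScr 5 of the 31 rose and 4 fell, and of the 114 23 rose and 6 fell. Of all genes 16.4% rose and 13.6% fell. The longest run was Zfp26, Zfp426, Zfp266 and Zfp846. In siBtg2 against siScr these changed by 0.36 ± 0.07 (adjusted p = 0.0009), 0.28 ± 0.09 (adjusted p = 0.015), 0.26 ± 0.05 (adjusted p = 0.00036) and 0.07 ± 0.11 (adjusted p = 0.66), so 3 of the 4 rose. The Zfp426 call was lost without siScr replicate 3 (adjusted p = 0.066). In siBtg1 only Zfp26 of this run passed (0.32 ± 0.07 (adjusted p = 0.0016)). Adjacent genes could also part: beside Zfp786 lie Zfp398 and Zfp282, which in siBtg2 changed by 0.36 ± 0.13 (adjusted p = 0.035) and -0.19 ± 0.06 (adjusted p = 0.012). The Zfp398 call was lost without 4 libraries, siScr replicate 1 or 3 or siBtg2 replicate 1 or 2, with adjusted p up to 0.12, and the Zfp282 call without siScr replicate 1 (adjusted p = 0.066). The members of these runs were named after their values were seen.

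The other zinc finger families of the table are small. Of 32 tested genes named Zbtb with digits, 3 rose and 6 fell in siBtg12, 8 rose and 3 fell in siBtg1, and 9 rose and 1 fell in siBtg2, against the shares of all genes given for the role list (19.4% and 19.5%, 18.7% and 17.8%, and 16.4% and 13.6%). Their departure from additivity was called below 0 in 7 and above 0 in 0, beside 10.1% and 4.99% of all genes. Of the 32, 13 had an unadjusted p under 0.05 for it in edgeR (40.6%, and 28.3% of all genes). Of 5 Zkscan genes, 1 rose in siBtg12, 1 rose and 2 fell in siBtg1, and 2 rose in siBtg2. The 12 tested Zfp rows under the minimum count had 0 calls in edgeR in each comparison with siScr, with 0, 1 and 2 at an unadjusted p under 0.05 in siBtg12, siBtg1 and siBtg2. For the members as a whole 63 had an unadjusted p under 0.05 in siBtg12 (43.4%, and 46.6% of all genes), 51 in siBtg1 (35.2%, and 44.8%) and 57 in siBtg2 (39.3%, and 40.1%).

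The partners through which KRAB zinc finger proteins silence genes moved in both directions. Of 33 tested genes of a list of corepressors and heterochromatin factors, 11 rose and 6 fell in siBtg12 against siScr (19.4% and 19.5% of all genes), 11 rose and 3 fell in siBtg1 (18.7% and 17.8%), and 9 rose and 6 fell in siBtg2 (16.4% and 13.6%). Their median changes were 0.04 in siBtg12, 0.01 in siBtg1 and 0.03 in siBtg2. Trim28, the corepressor itself, had 328, 329.8 and 353 CPM in siBtg12, 323, 335 and 331 in siBtg1, 337, 321 and 325 in siBtg2 and 300.4, 306 and 305 in siScr, every knockdown library above siScr, and changed by 0.15 ± 0.04 (adjusted p = 0.0025) in siBtg12. Setdb1 changed by 0.15 ± 0.05 (adjusted p = 0.015) in siBtg12, 0.01 ± 0.05 (adjusted p = 0.87) in siBtg1 and 0.08 ± 0.05 (adjusted p = 0.24) in siBtg2. Atf7ip, which stabilises Setdb1, changed by 0.27 ± 0.04 (adjusted p = 3.4e-05) in siBtg12, Mbd3 of the NuRD complex by 0.25 ± 0.04 (adjusted p = 4e-05) and Morc2, an ATPase of silencing, by 0.23 ± 0.05 (adjusted p = 0.00056). Cbx3 was among the 6 of the list that fell in siBtg12, at -0.17 ± 0.05 (adjusted p = 0.018). The counts of the list moved when 1 library was left out: in siBtg12 it had 9 calls without siScr replicate 2 (5 rises), and 7 rises without siScr replicate 1. In siBtg1 it had 8 calls without siScr replicate 1 (7 rises, 1 fall) and 9 without any 1 siBtg1 library (1, 0 and 1 falls), and 0 falls without siScr replicate 3. In siBtg2 it had 9 calls without siScr replicate 2 (5 rises), 8 without siBtg2 replicate 3 (5 rises, 3 falls), and 4 rises without siScr replicate 1.

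Transcripts known to be short-lived, such as those of immediate early genes, were set beside the members. Of 40 tested genes of this list 10 rose and 13 fell in siBtg12 (19.4% and 19.5% of all genes), 20 rose and 7 fell in siBtg1 (18.7% and 17.8%), and 16 rose and 3 fell in siBtg2 (16.4% and 13.6%), with falls in siBtg2 at 1 without siScr replicate 2 or siBtg2 replicate 3. The list's median log2 changes were -0.08 in siBtg12, 0.19 in siBtg1 and 0.12 in siBtg2, while those of the Zfp members were 0.03, -0.00 and 0.03 in these groups. The departure from additivity was called below 0 in 22 of the 40 (10.1% of all genes) and above 0 in 0 (4.99%) in edgeR. Its median over the list was -0.29, and 26 of the 40 had an unadjusted p under 0.05 for it in edgeR (65%, and 28.3% of all genes). Atf3, a stress-induced transcription factor, had 52.3, 54.9 and 53.7 CPM in siBtg12, 60.3, 68.7 and 70.2 in siBtg1, 45.3, 55.9 and 48.5 in siBtg2 and 36, 34.2 and 33.7 in siScr and departed by -0.83 ± 0.09 (adjusted p = 2.3e-06). Klf4, a transcription factor with its own zinc fingers, had 57.3, 58.7 and 59 CPM in siBtg12, 61.8, 65.3 and 63.5 in siBtg1, 89.7, 93.6 and 94.8 in siBtg2 and 100.2, 90.4 and 95.7 in siScr and departed by -0.08 ± 0.06 (adjusted p = 0.44). It was lower in siBtg12 and siBtg1 than in siBtg2 and siScr with no overlap. Gadd45a, a growth arrest gene, changed by -0.45 ± 0.05 (adjusted p = 5.7e-08) in siBtg12, and Rhob, a small GTPase, by 0.29 ± 0.04 (adjusted p = 5.1e-06).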

How the data were processed

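RNA-seq was measured in 12 libraries, 3 in each of 4 groups taken from the sample titles. The values deposited by the authors are raw counts per gene symbol and, per the file headers, a second table of TPM. Per the labels' protocols, total RNA was amplified (Ovation RNA-Seq System v2), Nextera XT was used for the libraries, and an Illumina HiSeq instrument read both ends. STAR, featureCounts, FastQC, cutadapt, Trim Galore and the build rn5 are named in the submitters' processing notes. Not given in the sources used here are versions, annotation, strand setting and how reads that fit several genes were handled. Amplified reads are not independent molecules. Even values outnumbered odd ones (13201 against 10440) where counts were 1 to 10. Coordinates and sequences are RefSeq's for GRCr8, not rn5.

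Counts were tested with edgeR 4.0.16 (R 4.3.3; quasi-likelihood F test, TMM scaling, robust dispersions) on all 12 libraries together, which leaves 8 residual degrees of freedom. Of the genes, 12535 passed filterByExpr and 4884 did not. TMM factors were 0.971 to 1.02, with a common biological coefficient of variation of 4.97%. Benjamini-Hochberg adjustment ran over all tested genes in each of 7 comparisons. The steps were tested on simulated data. Replicates differed by more than counting noise. The chi-square per degree of freedom was 4.07 to 4.82 in siScr, 6.76 to 11.4 in siBtg1, 5.81 to 8.01 in siBtg2 and 12.8 to 25.7 in siBtg12. By this measure the spread was widest in siBtg12, while the fit gave each gene a single estimate of the spread for all groups. The alternatives tried were DESeq2 1.42.0; other scalings (RLE, or library size alone); other filters (none, or 1 CPM in 6 libraries); a fit of only the groups compared; a block for the replicate number; limma 3.58.1 on log2(TPM + 1) and log2(TPM + 0.1); and each library left out.

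The members and lists were chosen with earlier results of these data known. Genes were named by rule: the 6 members of highest mean TPM, the 6 largest called rises and 6 largest falls in each comparison with siScr (3 and 3 elsewhere), called members with a characterised role, those nearest the minimum count, and the 4 smallest p of each other list in siBtg12 against siScr. Adjacent genes, Trim28, Setdb1 and the genes that stand beside a named one for comparison were added after their values were seen. One gene that the rule named is not reported here. Protein sequences, which were to give structure classes and closest pairs, were not used here.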

Additional observations from a re-analysis of the deposited data

Results flagged for a closer look

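Of the 145 genes, 19 had a double-knockdown level that departed from the sum of the single knockdowns in the edgeR test of that term. The term is siBtg12 minus siBtg1 minus siBtg2 plus siScr, on the log2 scale. The targets themselves departed, Btg1 by -0.44 ± 0.06 (adjusted p = 2.9e-05) and Btg2 by -0.65 ± 0.06 (adjusted p = 1.4e-07). Whether this bears on the members was not tested. The 19 members are flagged for a closer look. Below 0 were Zfp697 (-0.958), Zfp365 (-0.775), Zfp281 (-0.617), Zfp800 (-0.492), Zfp26 (-0.446), Zfp608 (-0.429), Zfp652 (-0.425), Zfp507 (-0.377), Zfp292 (-0.33), Zfp639 (-0.316) and Zfp445 (-0.296). Above 0 were Zfp691 (0.413), Zfp133 (0.374), Zfp213 (0.358), Zfp46 (0.343), Zfp219 (0.293), Zfp414 (0.273), Zfp251 (0.269) and Zfp830 (0.253). Of all genes tested 15.1% passed this test. When 1 library was left out in turn, 12 of the 19 kept the call every time: Zfp697, Zfp365, Zfp281, Zfp608, Zfp652, Zfp507, Zfp800, Zfp26 and Zfp292 below 0, and Zfp691, Zfp46 and Zfp219 above. That is 63.2% of the 19, beside 57.0% of all genes that passed this test. Of the 12, Zfp800, Zfp26 and Zfp292 lost the call under at least 1 other alternative setting, and the remaining 9 kept it under every one.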

How the results depend on the processing

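Of 5500 recomputed values of 50 named genes, 5097 kept their side of the threshold, 339 fell short of it and 64 newly passed it. Of the values that passed in the main fit or in the alternative, 0 reversed direction. Changes of direction in values that passed in neither were not counted. With limma on log2(TPM + 1) or log2(TPM + 0.1), the members that fell numbered 5 or 6 in siBtg12 against siScr and 7 or 6 against siBtg2, and 7 departed below additivity under both. Under both limma fits the corepressor list had 3 falls in siBtg12, 8 calls with 0 falls in siBtg1 and 5 rises in siBtg2. With only the groups compared, siBtg12 against siBtg1 had 13 calls (9 rises) and siBtg12 against siBtg2 had 9 rises. With library size alone, siBtg12 against siBtg2 had 9 falls and the short-lived list had 6 falls in siBtg2. The other alternatives moved no count of calls by over 1.5 times.

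Leaving out each library gave 27 to 51 calls in siBtg12 against siScr (6 to 16 falls), 26 to 36 in siBtg1 (11 to 19 falls) and 28 to 38 in siBtg2 (5 to 9 falls). It gave 10 to 24 in siBtg12 against siBtg1 (6 to 19 rises), 20 to 26 in siBtg12 against siBtg2 (9 to 14 rises, 8 to 15 falls), 33 to 45 in siBtg1 against siBtg2 (19 to 30 falls), and 13 to 20 departures (3 to 9 above 0). The corepressor list had 9 to 15 calls (5 to 10 rises) in siBtg12, 8 to 10 (7 to 10 rises, 0 to 2 falls) in siBtg1 and 8 to 12 (4 to 8 rises, 3 to 6 falls) in siBtg2, and the short-lived list 1 to 4 falls in siBtg2.

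With the replicate number as a block, members called numbered 41, 40 and 37 in siBtg12, siBtg1 and siBtg2 against siScr, 18 and 27 in siBtg12 against siBtg1 and siBtg2, 47 in siBtg1 against siBtg2 and 20 for the departure. Deviations from the group mean were nearly uncorrelated between samples with the same number (correlations -0.092 to 0.0599). No shared deviation was thus seen, which cannot show whether samples with the same number were prepared together. The median standard error of a member's log2 change in siBtg12 against siScr was 0.077, against 0.067 over all genes. Whether this bears on the share of members called was not tested.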
